A study of Vitis vinifera with 72 samples.

Results

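Of the 29971 gene IDs in a grapevine berry RNA-seq table, 84 (0.280%) were selected on their measured values: a mean of at least 1 FPKM (fragments per kilobase of gene model, scaled to the mapped fragments of the library) over the 36 Cabernet Sauvignon libraries, and below 0.2 FPKM in each of the 36 Sangiovese libraries. The study profiled total RNA of berry pericarp, the skin and flesh of the fruit, from both cultivars of Vitis vinifera. The Cabernet Sauvignon groups were mid-ripening berries (MR, BBCH growth stage 83) and pre-veraison berries (PV, BBCH 79) of 2012 and 2011, each from Bolgheri on the Tuscan coast, Montalcino in inland Tuscany and Riccione on the Adriatic coast. The Sangiovese groups covered the same stages, years and areas. With 3 biological replicates a group, the 24 groups held 72 libraries, 36 per cultivar. The labels name neither clone, rootstock nor vineyard, so cultivar differences cannot be told apart from differences between plots, and each area stands for whatever site was sampled there. They name no sequencing batch, and a batch that coincided with a season cannot be told apart from it.

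Veraison is the point at which the grape berry stops being a hard, green, acid fruit and begins to soften, take up sugar and, in red cultivars, make anthocyanins, and a large part of the berry transcriptome is known to change around it. Cultivars of a clonally propagated, highly heterozygous species differ in single bases, in larger insertions and deletions and in whether a gene is present at all. A short-read FPKM table counts fragments that map to the gene models of a reference genome, so a low value can come from little RNA, or from reads that differ too much from the reference to be placed. Which of these applies to a member was not tested. In bulk pericarp, fewer cells of a type and less RNA per cell cannot be told apart.

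None of the 29971 IDs was found in the RefSeq gene table at hand, which lists 29591 genes, so the members are given by ID, without gene names or functions. Total FPKM per library ran from 813505 to 1014770. Within Cabernet Sauvignon the totals did not overlap between stages, with every MR library at 884462 or more and every PV library at 880246 or less. A Cabernet Sauvignon library had 20682 to 22810 IDs above 0 (median 21597.5), and a Sangiovese library had 21011 to 22875 (median 21749). The depth of sequencing is not stated by the labels or the table. The lowest correlation of log2 values between replicates of a group was 0.982, and no pair of libraries held identical values.

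The members made up a small set with low to moderate levels. Their summed level was 167.4 to 436.0 FPKM in Cabernet Sauvignon MR libraries (median 199.2) and 363.1 to 1675 FPKM in Cabernet Sauvignon PV libraries (median 402.1), against 0.255 to 1.4 FPKM in Sangiovese libraries (median 0.784). This gap is what the selection asked for, so no test is given for it. The median member had a mean of 2.05 FPKM over the Cabernet Sauvignon libraries, whereas the median over all 17397 IDs with a mean of at least 1 FPKM there was 13.4 FPKM. Member means ran from 1.01 to 35.4 FPKM, with 39 members under 2, 29 from 2 to under 5 and 16 at 5 or more. The map of group means shows the Sangiovese columns near 0 throughout.

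**Figure D1:**
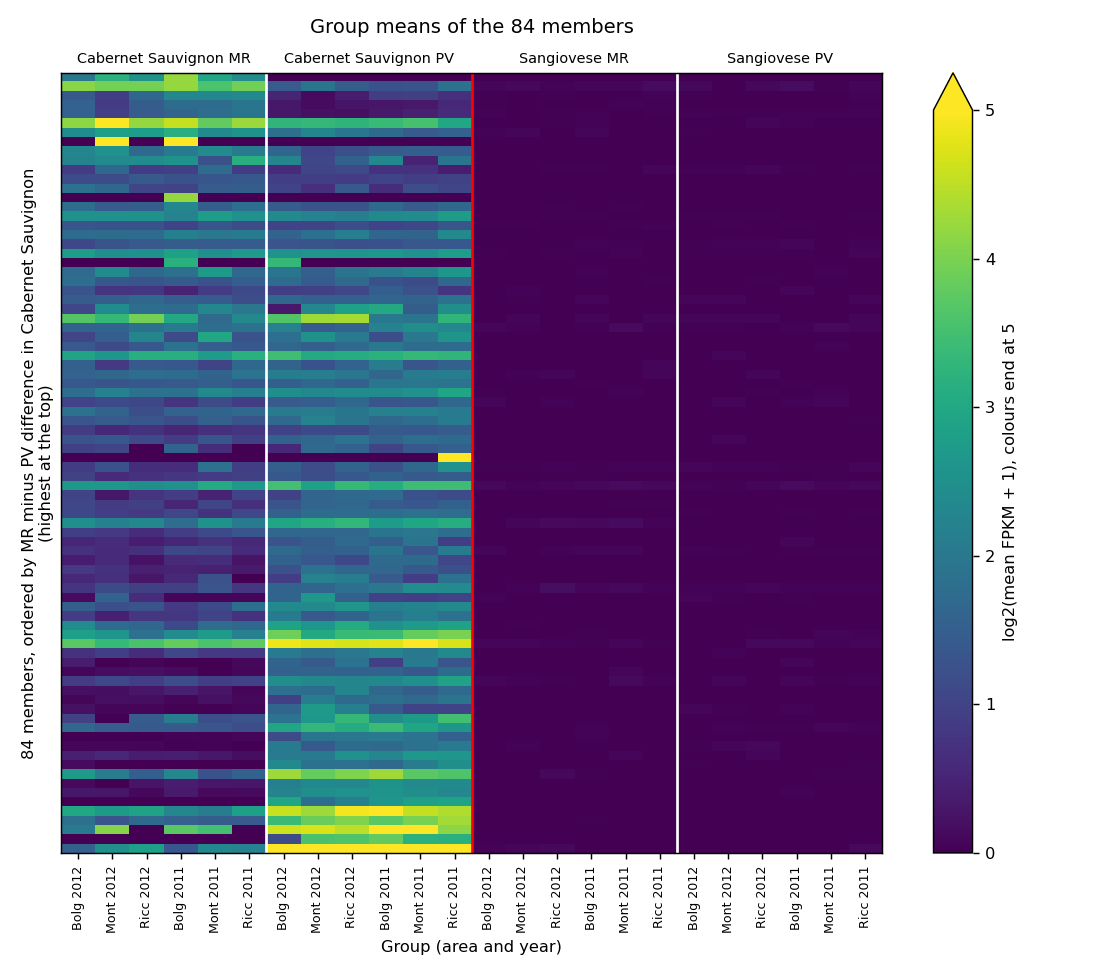
Each line of the map is 1 of the 84 members and each column is the mean of 3 libraries, as log2(mean FPKM + 1). Cabernet Sauvignon is left of the red line and Sangiovese right of it. Members are ordered by their MR minus PV difference in Cabernet Sauvignon, and most of the lower lines are brighter at PV.

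In Cabernet Sauvignon, 46 members were at or above 0.2 FPKM in all 36 libraries, 31 in 18 to 35 and 7 in under 18. A mean of at least 1 FPKM was reached in all 12 Cabernet Sauvignon groups by 32 members. At both stages 44 members had a mean of at least 1 FPKM, at MR only 8 and at PV only 32. The counts of libraries per member show a main peak at all 36 Cabernet Sauvignon libraries and another at 0 Sangiovese libraries.

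**Figure D2:**
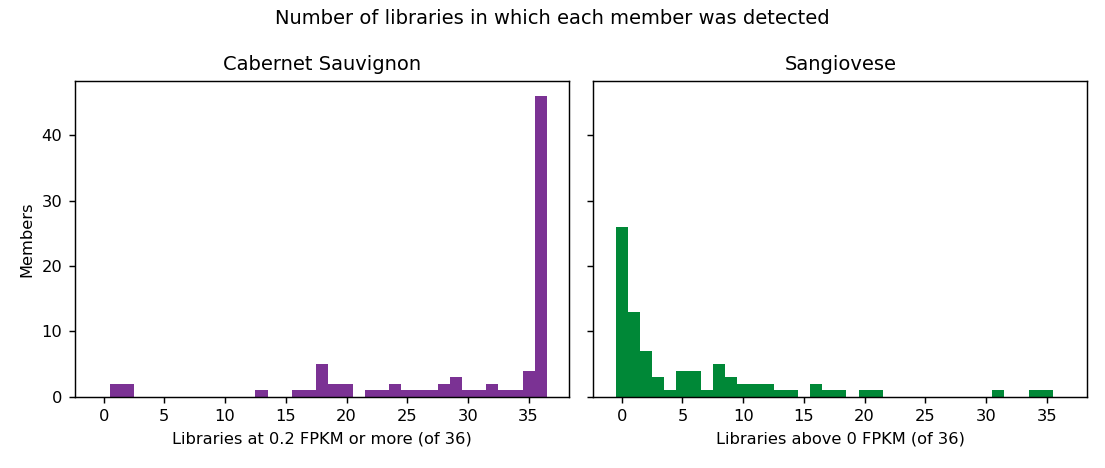
The left panel counts members by the number of Cabernet Sauvignon libraries at 0.2 FPKM or more, and the right panel by the number of Sangiovese libraries above 0 FPKM. The tallest bars are 46 members at all 36 Cabernet Sauvignon libraries and 26 members at 0 Sangiovese libraries.

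A value below the limit was not the same as no signal. In Sangiovese, 26 members were listed at 0 in every library, 23 were above 0 in 1 to 3 libraries, 29 in 4 to 17 and 6 in at least 18. The highest of these counts was 35 of 36 libraries, for VIT_02s0025g00980, whose Sangiovese median was 0.0266 FPKM. VIT_10s0116g00920 was above 0 in 34 Sangiovese libraries, with a highest value of 0.169 FPKM, and VIT_14s0030g00520 in 31, with a highest value of 0.189 FPKM. For 25 members no value between 0 and 0.2 FPKM was listed in any of the 72 libraries. "Detected only in Cabernet Sauvignon" therefore means below 0.2 FPKM in Sangiovese, not absent from it.

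There were 4 members, chosen for mention after their values were seen, that owed their place to 1 or 2 libraries. VIT_18s0001g06540 had the highest mean of all members, 35.4 FPKM, but was listed at 1274 FPKM in replicate 3 of PV Riccione 2011 and at 0 in the other 35 Cabernet Sauvignon libraries. VIT_10s0042g00400 was listed at 52.2 FPKM in replicate 2 of MR Bolgheri 2011 and at 0 in the others. VIT_14s0006g02250 was listed at 158.4 FPKM in replicate 1 of MR Montalcino 2012 and at 150.02 FPKM in replicate 2 of MR Bolgheri 2011. VIT_11s0103g00670 was listed at 24 FPKM in replicate 2 of MR Bolgheri 2011 and at 27.2 FPKM in replicate 2 of PV Bolgheri 2012. These are single values that the other replicates of the same group did not share. Replicate 2 of MR Bolgheri 2011, which holds 3 of the 4, had 9 IDs at 10 FPKM or more with 0 in both of its replicates, within the 1 to 13 of the Cabernet Sauvignon libraries (median 6). Without this library 82 of the 84 members met the rule. Without the 4 members the highest summed level was 233.9 FPKM at MR and 485.3 FPKM at PV.

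Switching between 0 and a sizeable value was found in other members too. Within at least 1 Cabernet Sauvignon group, 10 members were at 0 in 1 replicate and at 10 FPKM or more in another, the 4 above among them. An exact 0 in such a table can be a failed estimate, so for these members a mean describes no library well. VIT_14s0081g00100 and VIT_16s0013g02190 were singled out after their values were seen. VIT_14s0081g00100, listed at 0 in 19 Cabernet Sauvignon libraries, had 0, 0 and 16.7 FPKM as its lowest, median and highest value at MR and 0, 1.94 and 9.74 FPKM at PV. VIT_16s0013g02190, at 0 in 8 libraries, had 0, 3.64 and 14.5 FPKM at MR and 0, 1.88 and 7.09 FPKM at PV. The stages overlapped widely for both.

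The limits themselves were not natural gaps. Just inside the Sangiovese limit were VIT_00s0437g00010, with a highest Sangiovese value of 0.197 FPKM, and VIT_11s0065g00990, with 0.196 FPKM. Just outside it were VIT_00s0361g00110, with a mean of 2.83 FPKM in Cabernet Sauvignon and a highest value of 0.206 FPKM in Sangiovese, and VIT_04s0008g05360, with 2.12 FPKM in Cabernet Sauvignon and 0.207 FPKM in Sangiovese. At the Cabernet Sauvignon limit, VIT_16s0039g02420 and VIT_16s0022g01670 were inside, each with a mean of 1.01 FPKM. VIT_11s0016g00750, with 0.980 FPKM, and VIT_03s0091g01220, with 0.964 FPKM, were outside.

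The rule did not use the labels of ripening stage, season or area, which were compared within Cabernet Sauvignon. A member can still meet its mean of at least 1 FPKM through its higher stage, season or area alone. A difference in that direction is then asked of it. Levels were analysed as log2(FPKM + 1), a scale that understates the fold change of low genes, with limma fitted to 19276 genes in the 36 Cabernet Sauvignon libraries and two-sided p-values adjusted by Benjamini-Hochberg over all of them. A member is called where this adjusted p is under 0.05. All 84 members were among the genes tested, as the rule of a mean of at least 1 FPKM ensures.

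Most members were lower in mid-ripening than in pre-veraison berries. At MR 13 of 84 members were higher (15.5%, against 31.5% of all genes tested) and 55 were lower (65.5%, against 58.9%). A call with a difference of at least 1 on the log2 scale was made for 6 members higher at MR (7.14%, against 7.31%) and 29 lower (34.5%, against 23.1%). Every MR library was above every PV library for 5 members (5.95%, against 9.8% of all genes tested), and every MR library was below every PV library for 22 (26.2%, against 27.3%). The median MR minus PV difference on the log2 scale was -0.58 over the members and -0.28 over all genes tested. The rule bears on these counts: 32 members with an MR mean under 1 FPKM passed through PV berries, and 8 with a PV mean under 1 FPKM passed through MR berries, so a difference in that direction was asked of them. For such members the values and differences are given without a test. The balance also depended on the scaling between libraries. Of the calls, 19.1% were higher at MR for the members and 34.8% for all genes tested. With median-of-ratios scaling 16 members were higher and 49 lower (24.6% of the calls higher, against 47.4% for all genes tested), with medians of -0.42 over the members and -0.05 over all genes tested. With quantile normalization 29 were higher and 37 lower (43.9%, against 55.0%), with medians of -0.05 and 0.10. The plot of members by stage shows most points below the line of equal levels.

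**Figure D3:**
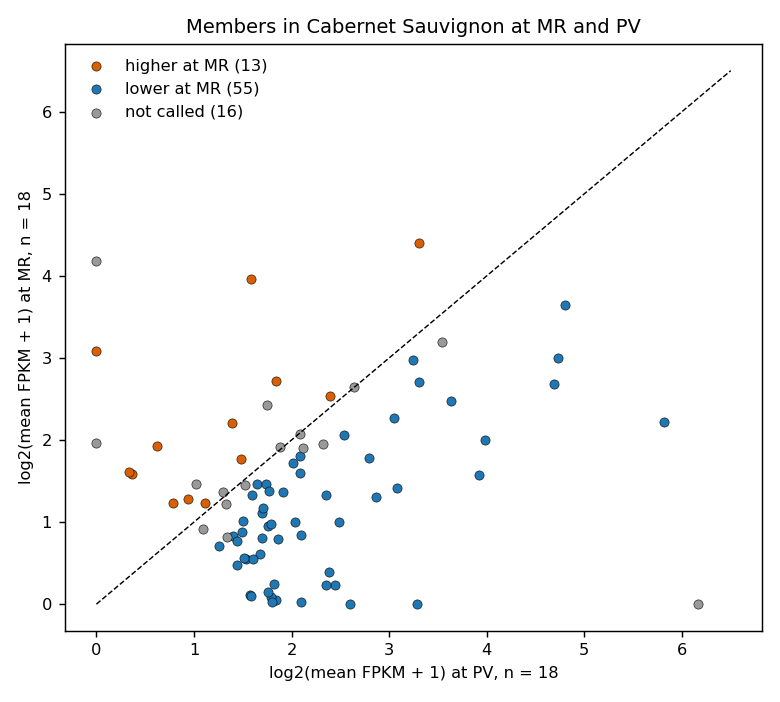
Each point is 1 of the 84 members, with the log2(mean FPKM + 1) over 18 Cabernet Sauvignon MR libraries on the vertical axis and over 18 PV libraries on the horizontal axis. The dashed line marks equal levels. Orange points are the 13 members called higher at MR, blue the 55 called lower, grey the 16 not called. The grey point at the far right is the member whose mean rests on 1 library.

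Among the 13 members higher at MR, the differences ran from 0.12 to 2.72 on the log2 scale, with a median of 0.88. VIT_14s0030g00520 had 10.05, 14.7 and 19.7 FPKM as its lowest, median and highest value in MR libraries, against 1.09, 1.73 and 4.57 FPKM in PV libraries. The stages did not overlap, and the difference was 2.41 on the log2 scale (SE 0.066, limma adjusted p = 1.89e-23). VIT_11s0065g01210 had 12, 17.8 and 45.6 FPKM in MR libraries, against 6.39, 9.14 and 11.6 FPKM in PV libraries. Here too each MR library was above each PV library, with a difference of 1.02 (SE 0.105, limma adjusted p = 5.69e-10). The spread at MR came mostly from replicates of a single group, Montalcino 2012, which had 12, 43.0 and 45.6 FPKM. Montalcino 2011 had 12.2 to 13.4 FPKM.

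VIT_01s0127g00900 had a signal in every MR library and in no other. It had 1.18, 5.95 and 23 FPKM in MR libraries and was listed at 0 in all 18 PV libraries and all 36 Sangiovese libraries. No fold is given against a group at 0. Its MR values were 1.18, 3.54 and 13.3 FPKM in 2012, against 1.46, 7.15 and 23 FPKM in 2011, and the season difference at MR was -0.78 (limma adjusted p = 0.029). In Bolgheri the 3 libraries of 2012 had 1.52, 2.21 and 5.30 FPKM, all below the 12.9, 17.6 and 23 FPKM of 2011. The seasons overlapped in the other areas. Montalcino had 3.54, 7.61 and 13.3 FPKM in 2012, against 3.00, 7.15 and 9.84 FPKM in 2011. Riccione had 1.18, 1.56 and 11.9 FPKM in 2012, against 1.46, 5.44 and 6.45 FPKM in 2011. The season difference was negative in 2 areas and positive in 1, Montalcino. VIT_04s0008g00460 had 3.71, 5.44 and 8.05 FPKM at MR, against 1.27, 2.35 and 4.41 FPKM at PV. These ranges overlapped slightly, and the difference was 0.88 (SE 0.056, limma adjusted p = 1.32e-14).

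The 55 members lower at MR spanned differences of -3.58 to -0.18 on the log2 scale, with a median of -1.03. VIT_01s0011g02600, the highest of them, had 1.00, 3.76 and 7.08 FPKM in MR libraries, against 23.1, 48 and 110.5 FPKM in PV libraries. The stages were far apart in every area and year, with a difference of -3.58 (SE 0.081, limma adjusted p = 2.21e-25). VIT_00s0199g00110 had 7.80, 11.3 and 14.1 FPKM at MR, against 22, 27.2 and 33.0 FPKM at PV. Its difference was -1.17 (SE 0.036, limma adjusted p = 3.81e-22), with narrow ranges at both stages.

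VIT_14s0030g00140 had 1.26, 1.94 and 2.90 FPKM at MR, against 9.15, 14.5 and 19.7 FPKM at PV, and VIT_00s0437g00010 had 1.12, 2.87 and 5.82 FPKM at MR, against 9.34, 14.4 and 19.9 FPKM at PV. Neither member had a library of one stage within the range of the other. The differences were -2.34 (SE 0.047, limma adjusted p = 1.12e-26) for VIT_14s0030g00140 and -2.05 (SE 0.060, limma adjusted p = 8.19e-23) for VIT_00s0437g00010.

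Of the members called lower at MR, 21 were listed at 0 in at least 1 Cabernet Sauvignon library, 5 of them with a PV mean of at least 5 FPKM. VIT_11s0016g03840, listed at 0 in 10 Cabernet Sauvignon libraries, had 0, 4.22 and 26.4 FPKM at MR, against 0, 22 and 49.6 FPKM at PV. VIT_13s0175g00040, at 0 in 4 libraries, had 0, 5.80 and 13.5 FPKM at MR, against 3.39, 23.8 and 40.9 FPKM at PV. VIT_14s0060g02230 was listed at 0 in all 18 MR libraries and had 0, 8.43 and 24.4 FPKM at PV, where it was above 0 in 13 libraries. These 3 overlapped between stages or shared zeros. The limma adjusted p-values were 4.20e-06 for VIT_11s0016g03840 and 2.21e-06 for VIT_13s0175g00040. Both are among the 10 members that switched between 0 and 10 FPKM or more within a group, so these p-values rest partly on listed zeros. The other 2 of the 5 were VIT_13s0067g01090, with 0, 1.76 and 6.58 FPKM at MR, against 0, 6.36 and 17.3 FPKM at PV, and VIT_08s0007g06970, listed at 0 in all MR libraries and with 0, 5.02 and 10.7 FPKM at PV. The values of every library of 8 members show these different shapes side by side.

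**Figure D4:**
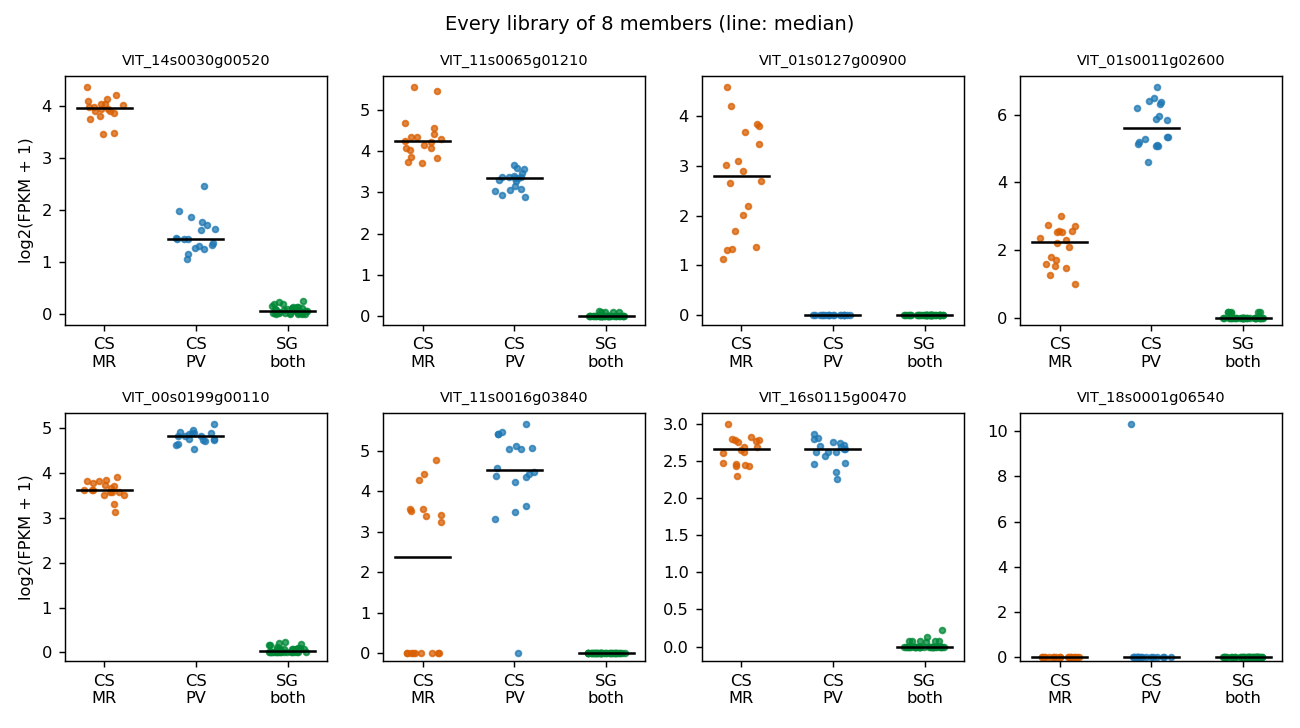
Each point is a library, as log2(FPKM + 1), for 8 members in Cabernet Sauvignon MR (CS MR, 18 libraries), Cabernet Sauvignon PV (CS PV, 18) and Sangiovese (SG, 36, both stages). Black lines are medians. VIT_14s0030g00520, VIT_11s0065g01210 and VIT_01s0127g00900 are higher at MR, VIT_01s0011g02600, VIT_00s0199g00110 and VIT_11s0016g03840 lower, VIT_16s0115g00470 is not called, and VIT_18s0001g06540 has 1 library above 0.

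For 13 members the MR mean in Cabernet Sauvignon was itself under 0.2 FPKM, so that they met the Cabernet Sauvignon limit through PV berries alone. Of these, 10 were above 0 in every PV library, with PV means of 1.97 to 4.43 FPKM. VIT_07s0031g02760, singled out after its values were seen, had 0, 0.167 and 0.468 FPKM at MR, against 2.43, 4.53 and 5.83 FPKM at PV. VIT_05s0102g00030, singled out in the same way, had 0, 0 and 0.122 FPKM at MR, against 1.86, 3.16 and 5.4 FPKM at PV. In Sangiovese libraries the highest value was 0.0946 FPKM for VIT_07s0031g02760 and 0.0523 FPKM for VIT_05s0102g00030. Under 0.2 FPKM at PV were 3 members, namely VIT_01s0127g00900 and 2 of the 4 seen in 1 or 2 libraries.

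The 16 members not called between stages lay between -0.57 and 0.81 on the log2 scale. VIT_16s0115g00470 was the steadiest member of at least 5 FPKM, with a coefficient of variation of its 12 group means of 10.5%. It had 3.92, 5.34 and 7.00 FPKM at MR and 3.79, 5.30 and 6.25 FPKM at PV, and its stage difference was 0.01 (SE 0.046, limma adjusted p = 0.878). The next steadiest members, VIT_15s0107g00360 (17.6%), VIT_10s0116g00920 (29.8%) and VIT_01s0010g04010 (37.3%), were all called lower at MR. Their differences were -0.27 (limma adjusted p = 0.00144), -0.59 (limma adjusted p = 3.77e-17) and -0.81 (limma adjusted p = 1.62e-12), in that order.

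Season had fewer calls than stage. At PV 8 members were higher in 2012 (9.52%, against 21% of all genes tested) and 18 were lower in 2012 (21.4%, against 32.3%). At MR 7 were higher in 2012 (8.33%, against 21.4%) and 11 lower (13.1%, against 16.8%). At PV 30.8% of the members' calls were higher in 2012, against 39.4% of the calls of all genes tested. With median-of-ratios scaling 12 were higher and 16 lower (42.9%, against 48.8%), and with quantile normalization 19 were higher and 10 lower (65.5%, against 48.4%). At MR 38.9% of the calls were higher in 2012, against 56.1% for all genes tested. With median-of-ratios scaling the split at MR was 7 and 14 (33.3%, against 46.8%), and with quantile normalization 6 and 14 (30%, against 45.0%). With group means as the unit, 6 for each stage, limma called 0 members, and 0 of all genes tested, for season at either stage. A fit that called 0 of all genes tested cannot show that a member did not differ. An unadjusted p under 0.05 was found for 11 members at PV (13.1%, against 16.1% of all genes tested) and 6 at MR (7.14%, against 8.14%).

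VIT_08s0007g07990 had the largest season difference of the members that also met the level and sign conditions for naming. At PV it had 9.43, 14.8 and 25.7 FPKM in 2012, against 1.42, 4.05 and 10.6 FPKM in 2011, and at MR 6.14, 11.6 and 16.7 FPKM in 2012, against 2.07, 3.2 and 9.44 FPKM in 2011. The 9 libraries of each season overlapped little at either stage. The 2012 minus 2011 difference was 1.71 at PV (SE 0.175, limma adjusted p = 5.07e-09) and 1.29 at MR (SE 0.175, limma adjusted p = 1.69e-06), positive in each of the 3 areas. Its stage difference was -0.22 (limma adjusted p = 0.0928), so that season was called for this member and stage was not. Its lowest group mean was 2.31 FPKM in MR Montalcino 2011 and its highest was 19.1 FPKM in PV Riccione 2012.

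VIT_01s0011g02600 had 56.5, 78.8 and 110.5 FPKM at PV in 2012, against 23.1, 34.3 and 39.5 FPKM at PV in 2011. All 9 libraries of 2012 were above all 9 of 2011, with a difference of 1.12 (SE 0.115, limma adjusted p = 5.27e-09). At MR the values were 1.78, 4.82 and 7.08 FPKM in 2012 and 1.00, 3.22 and 4.96 FPKM in 2011, overlapping, with a difference of 0.34 (limma adjusted p = 0.0201). In the other direction, VIT_14s0030g00140 differed by -0.22 at PV (SE 0.066, limma adjusted p = 0.0058), and VIT_00s0199g00110 by -0.18 at MR (SE 0.051, limma adjusted p = 0.00744), with overlapping seasons in both.

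Of the members called for season, 9 were called at both stages. At both stages 3 were higher in 2012 (3.57%, against 8.53% of all genes tested) and 6 lower (7.14%, against 7.31%). Besides the 2 above, VIT_07s0141g00060 was higher in 2012. Singled out after its values were seen, it had 1.46, 2.15 and 5.67 FPKM at PV in 2012, against 0.819, 0.929 and 1.33 FPKM in 2011, and 0.0685, 0.450 and 2.54 FPKM at MR in 2012, against 0, 0.0343 and 0.134 FPKM in 2011. The seasons did not overlap at PV, and at MR all 9 libraries of 2011 were below 0.2 FPKM. Its 2011 means were 0.964 FPKM at PV and 0.0508 FPKM at MR, so it met the Cabernet Sauvignon limit through 2012. VIT_11s0118g00080, singled out likewise, was lower in 2012 and higher at MR. At MR it had 0.661, 1.59 and 2.49 FPKM in 2012, against 3.37, 4.08 and 4.98 FPKM in 2011, without overlap. At PV it had 0.0431, 0.278 and 0.640 FPKM in 2012, against 0.291, 0.815 and 1.5 FPKM in 2011. Its 2012 means were 1.58 FPKM at MR and 0.281 FPKM at PV, so the 2012 libraries alone would not have met the limit.

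**Figure D5:**
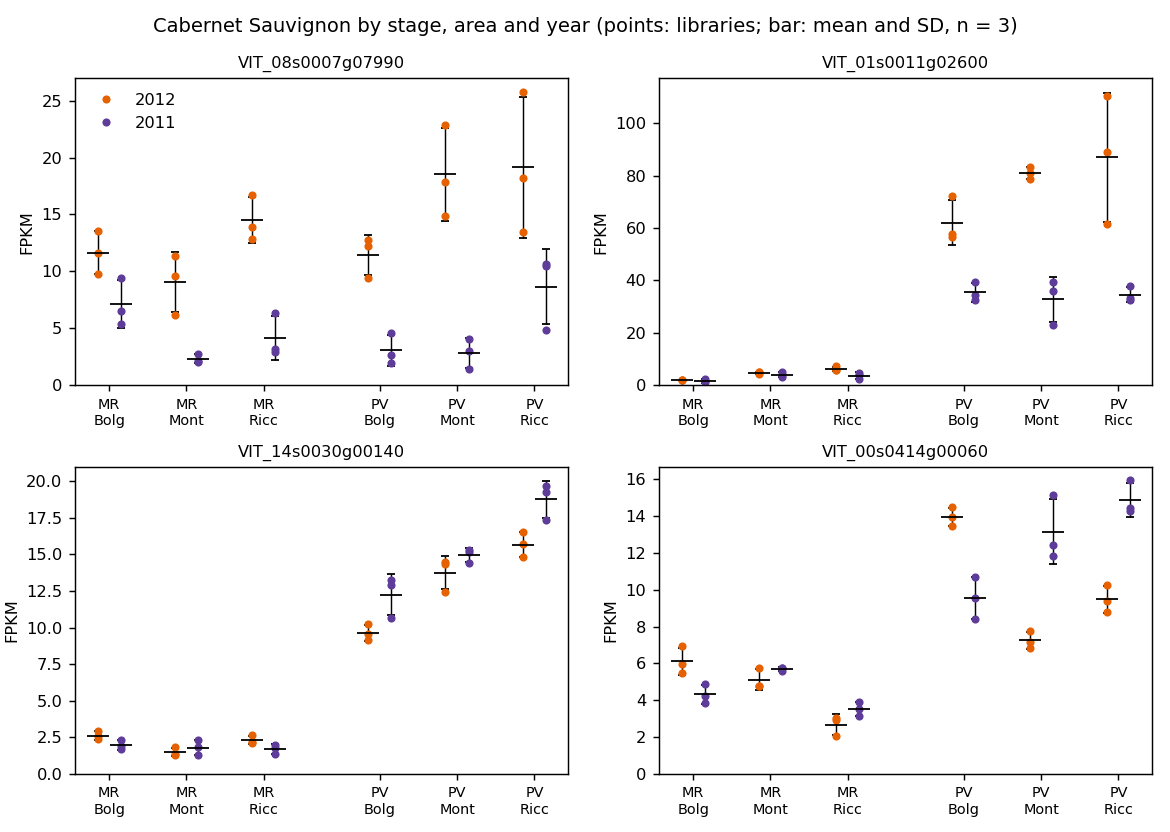
FPKM of 4 members in Cabernet Sauvignon by stage (MR left, PV right), area (Bolg, Bolgheri; Mont, Montalcino; Ricc, Riccione) and year (2012 orange, 2011 purple). Points are the 3 libraries of a group, and bars the mean and SD. VIT_08s0007g07990 is higher in 2012 in all 6 stage and area pairs, and VIT_01s0011g02600 is higher in 2012 at PV in every area.

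Between the 3 areas, 28 members differed at PV (33.3%, against 50.7% of all genes tested) and 28 at MR (33.3%, against 64.5%), by limma's F-test. At both stages 13 members were called (15.5%, against 36.4%), and at either 43 (51.2%, against 78.8%). Among those called at PV, the highest area mean was in Bolgheri for 5 members (17.9%, against 29.7% of all genes called), in Montalcino for 7 (25%, against 26.2%) and in Riccione for 16 (57.1%, against 44.1%). At MR it was in Bolgheri for 8 (28.6%, against 29.5%), in Montalcino for 13 (46.4%, against 40.4%) and in Riccione for 7 (25%, against 30.1%). With group means as the unit, 6 for each stage, limma called 0 members, and 0 of all genes tested, between areas at either stage. Here too, a fit without calls over all genes tested cannot show that a member did not differ. An unadjusted p under 0.05 was found for 6 members at PV (7.14%, against 3.13% of all genes tested) and 10 at MR (11.9%, against 12.5%).

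At PV, VIT_14s0030g00140 had 9.15, 10.4 and 13.2 FPKM in Bolgheri, 12.4, 14.5 and 15.3 FPKM in Montalcino and 14.8, 16.9 and 19.7 FPKM in Riccione. Bolgheri and Riccione did not overlap, and the widest gap between areas was 0.61 on the log2 scale (limma adjusted p = 3.4e-06). VIT_00s0437g00010 at PV was highest in Bolgheri, with 17.4, 17.8 and 19.9 FPKM, against 9.34, 13.3 and 13.9 FPKM in Montalcino and 10.9, 13.6 and 15.6 FPKM in Riccione. All 6 Bolgheri libraries were above all libraries of the other areas, a gap of 0.51 (limma adjusted p = 0.000293). The same member at MR had 3.53, 5.02 and 5.82 FPKM in Bolgheri, 1.12, 2.16 and 3.88 FPKM in Montalcino and 1.26, 1.81 and 3.00 FPKM in Riccione, a gap of 1.00 (limma adjusted p = 6.54e-09).

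At MR, VIT_00s0414g00060 had 3.85, 5.16 and 6.92 FPKM in Bolgheri, 4.76, 5.67 and 5.77 FPKM in Montalcino and 2.04, 3.09 and 3.91 FPKM in Riccione. Riccione was the low area, touching Bolgheri at its upper end, and the gap was 0.66 (limma adjusted p = 2.14e-08). VIT_11s0016g03840 was listed at 0 in all 6 MR Riccione libraries, and had 0, 8.99 and 18.6 FPKM in Bolgheri and 0, 10.9 and 26.4 FPKM in Montalcino (limma adjusted p = 0.000904). Its zeros were thus not spread evenly over the areas, although the other areas held zeros as well. VIT_08s0007g07990 differed between areas at PV by 0.94 (limma adjusted p = 0.00188) and at MR by 0.81 (limma adjusted p = 0.00422). Its 3 areas overlapped at both stages, and each area held both seasons.

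The stage difference itself varied with season and area for some members. It was more positive in 2012 for 8 members (9.52%, against 26.8% of all genes tested) and more negative in 2012 for 8 (9.52%, against 16.4%). Of the calls, 50% were more positive in 2012 for the members and 62% for all genes tested. With median-of-ratios scaling 8 were more positive and 10 more negative (44.4%, against 47.9%), and with quantile normalization 3 and 16 (15.8%, against 47.3%). Between areas it differed for 24 members (28.6%, against 59%). Some members were near 0 at MR and met the rule through PV berries, so for them such a call mostly repeats a difference at PV. VIT_00s1240g00010, singled out after its values were seen, had an MR mean of 0.0651 FPKM. Its 2012 minus 2011 difference was 1.02 at PV and 0.07 at MR, and its difference of differences was -0.95. VIT_01s0011g02600 fell further at MR in 2012 than in 2011, the difference of differences being -0.78 (SE 0.163, limma adjusted p = 0.000343), negative in all 3 areas. VIT_04s0008g00460 rose less at MR in 2012, by -0.45 (SE 0.113, limma adjusted p = 0.00211), and its season difference was 0.45 at PV (limma adjusted p = 2.77e-05) and 0.00 at MR (limma adjusted p = 0.99).

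Across the 7 tests, 10 members were called in none (11.9%, against 2.21% of all genes tested), and 7 of these were listed at 0 in at least 10 Cabernet Sauvignon libraries, the 4 seen in 1 or 2 libraries among them. Stage alone was called for 23 members (27.4%, against 6.72%), and stage with a season and an area test for 25 (29.8%, against 54.3%). The rule bears on the stage calls and on the stage share below. It asked a stage difference of the 32 members with an MR mean under 1 FPKM and the 8 with a PV mean under 1 FPKM. Stage held a median of 61.1% of the variation of log2 levels in Cabernet Sauvignon for the members, and 61.1% for all genes tested. Area held a median of 3.18% for the members and 4.03% for all genes tested, and year 2.00% and 1.97%. Replicates within a group held 14.1% for the members and 7.09% for all genes tested, beside the lower levels of the members.

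The IDs carry a chromosome and scaffold number and a running number, which the rule did not use. Of the 75 members with a neighbouring ID on both sides, 36 (48%) had a neighbour below 0.2 FPKM in every Cabernet Sauvignon library, against 24.3% of 16707 IDs with a mean of at least 1 FPKM in Cabernet Sauvignon. For 43 members (57.3%) a neighbour was below 0.2 FPKM in every Sangiovese library, against 23.6%. A neighbour below 0.2 FPKM in every Sangiovese library but not in every Cabernet Sauvignon library was found for 16 members (21.3%), against 3.90%. Among these 16 are 6 members (8%, against 0.419%) whose neighbour is itself a member and so meets this condition by the rule. They are the consecutive pairs given next. Both neighbours had a Sangiovese mean of at least 1 FPKM for 10 members (13.3%), against 50.9%. These shares are descriptions, since neighbouring IDs are not independent.

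Consecutive numbers were held by 6 members, in 3 pairs. VIT_14s0006g01700 and VIT_14s0006g01710 were alike, with MR means of 0.306 and 0.176 FPKM and PV means of 4.23 and 4.11 FPKM. Their stage differences were -1.97 and -2.10 on the log2 scale. The next ID, VIT_14s0006g01720, was at 0.2 FPKM or more in all 36 Sangiovese libraries.

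VIT_11s0065g00980 had 0.284, 0.868 and 1.28 FPKM at MR, against 1.49, 3.34 and 5.10 FPKM at PV, and VIT_11s0065g00990 had 0.547, 0.944 and 1.59 FPKM at MR, against 2.79, 4.53 and 6.68 FPKM at PV. Both were without overlap between stages, with differences of -1.24 and -1.47. The ID before them, VIT_11s0065g00970, is no member, yet it had means of 8.95 FPKM at MR and 46.7 FPKM at PV in Cabernet Sauvignon and a median of 0 in Sangiovese, where 3 libraries were at 0.2 FPKM or more and the highest reached 6.48 FPKM. VIT_00s0181g00060 and VIT_00s0181g00070 went opposite ways between stages. VIT_00s0181g00060 had 1.14, 1.45 and 1.81 FPKM at MR, against 0.754, 0.884 and 1.24 FPKM at PV, a difference of 0.35. VIT_00s0181g00070 had 0.475, 1.51 and 3.07 FPKM at MR, against 2.54, 4.08 and 6.07 FPKM at PV, a difference of -1.04 (SE 0.095, limma adjusted p = 4.5e-11).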

How the data were processed

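Total RNA of berry pericarp was sequenced from 72 non-directional libraries, per the labels' protocols. FPKM values per gene ID were deposited by the authors as 1 table, and CASAVA 1.8.2, TopHat2 2.0.9 and Cufflinks 2.1.1 are named, per the submitters' processing notes. Of the genome build, the annotation, the options and the sequencing depth nothing is stated there or in the table (not given in the sources used here). Because strand was not kept, overlapping and antisense genes cannot be told apart, and near-identical genes can share reads. Every column was matched to a sample by its title, and 0 columns were left over. The members and lists were chosen with earlier results of these data known.

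Values were analysed as log2(FPKM + 1) in Cabernet Sauvignon alone (limma 3.58.1, R 4.3.3, empirical Bayes with trend, 12 group means, 24 residual degrees of freedom), because the rule holds the members near 0 in Sangiovese, which would shrink their spread. Genes with a mean of at least 1 FPKM in at least 1 group were kept, and the script was tested on simulated data. The design text calls the replicates biological but names no plants, so p-values measure the spread between these samples.

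Members are named by rule: the 6 highest means, up to 2 called members each way per test whose matched pairs of groups all shared a sign and whose higher side reached 5 FPKM, up to 3 per area test, the 4 steadiest of at least 5 FPKM, runs of IDs and those nearest the limits. VIT_14s0006g01700 and VIT_14s0006g01710 form the third run. Others outside the rule are marked, or are given as the extreme of a count or to complete a counted set. Alternatives tried were other pseudocounts, filters, scalings and limits, all 72 libraries in the fit, single seasons, group means as the unit and leaving out each library.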

Additional observations from a re-analysis of the deposited data

Results flagged for a closer look

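The MR minus PV difference of Cabernet Sauvignon members differed between seasons by limma's interaction test for 8 members more positive in 2012 and 8 members more negative in 2012. It differed between areas for 24 members. For members near 0 at MR, such a call mostly repeats a difference between seasons or areas at PV. Among the named members, VIT_01s0011g02600 had a difference of differences of -0.78 on the log2 scale, and VIT_04s0008g00460 one of -0.45. Their causes were not tested.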

How the results depend on the processing

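The 84 members became 54 with a Sangiovese limit of 0.1 FPKM, 155 with 0.5, 145 with a Cabernet Sauvignon mean of at least 0.5 and 45 with at least 2, and 81 to 87 when 1 library was left out. Allowing 3 other IDs between members put 11 in runs instead of 6. Requiring a log2 difference of at least 1 left 6 members higher and 29 lower at MR, 3 higher and 0 lower in 2012 at PV, 1 higher and 0 lower at MR, and 0 either way for stage by season. The filter of 5 FPKM, which tests fewer members, left 5 higher and 21 lower at MR, 5 higher and 6 lower in 2012 at PV, 3 lower in 2012 at MR, 13 by area at PV, 16 at MR, 4 more positive and 3 more negative for stage by season, and 13 for stage by area. Quantile normalization gave 29 higher at MR, 19 higher and 10 lower in 2012 at PV, and 3 and 16 for stage by season. A pseudocount of 0.1 gave 17 by area at PV and 4 more negative for stage by season. With all 72 libraries, where the near-0 Sangiovese values lower the spread, 13 were higher in 2012 at PV, 11 at MR, 16 more positive for stage by season and 45 for stage by area. With group means as the unit (12 for stage, 6 for season or area), limma called 11 members higher and 50 lower at MR. Of all 19276 genes tested, 14020 were called for stage in this fit. For season and area limma called 0. An unadjusted p under 0.05 was found for 11 and 6 members (season at PV and MR) and 6 and 10 (areas at PV and MR). The cause of these shifts was otherwise not tested.

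Leaving out each library in turn gave 12 to 14 higher and 54 to 57 lower at MR, 8 to 9 higher and 16 to 23 lower in 2012 at PV, 6 to 8 and 9 to 12 at MR, 21 to 28 by area at PV, 26 to 31 at MR, 8 to 11 and 7 to 9 for stage by season and 19 to 27 for stage by area. For the 17 named results, none of the 612 fits that left out 1 library lost the call. Of the other 182 alternatives 16 lost it, 11 of them with group means as the unit, and 0 turned. The 17 include the stage differences of VIT_01s0127g00900, at 0 in all PV libraries, and VIT_14s0060g02230, at 0 in all MR libraries. The rule asked for these differences, so the calls kept for them lend no support. No paired analysis was possible because the sample titles are plain numbers and the replicate numbers were given in accession order, so they pair nothing. Depth per library is unknown, so no interval for a listed 0 can be given.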

Other observations

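With the cultivars exchanged, the same rule found 69 IDs, below 0.2 FPKM in every Cabernet Sauvignon library and with a mean of at least 1 FPKM in Sangiovese. Their median Sangiovese mean was 2.15 FPKM. In every Sangiovese library 33 of the 69 were at 0.2 FPKM or more, 22 were at 0 in every Cabernet Sauvignon library, and 7 were above 0 in at most 2 Sangiovese libraries. Below 0.2 FPKM in all 36 libraries were 6652 IDs in Cabernet Sauvignon and 6435 in Sangiovese, and 5571 were below it in all 72.

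By the chromosome digits of the IDs, 11 members carried 00, 10 carried 11, 8 carried 14 and 7 each carried 15 and 16, while 0 carried 12 or 17. As a share of the IDs with a mean of at least 1 FPKM in Cabernet Sauvignon, members were 1.26% for 11, 1.16% for 16, 1.15% for 15 and 0.914% for 00. The other digits ran from 0% for 12 and 17 to 0.712% for 14. Over all digits there were 84 members among 17397 such IDs. No comparison between these digits was tested.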
